A study of Mus musculus with 9 samples.

Results

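Developing skeletal muscle builds its sarcomeres, the repeating contractile units of the fibre, with isoforms that are later replaced by adult fast or slow ones. Several of these early isoforms stay in use in the heart, and muscle fibres that regenerate after injury pass through the same early set again, which is why these genes are read as markers of new or repairing fibres. The genes described here were 7 such genes chosen by name. Myh3 and Myh8 encode the embryonic and perinatal myosin heavy chains, the motor proteins of the thick filament. Myl4 encodes the atrial and embryonic essential light chain of myosin, Actc1 the cardiac alpha actin of the thin filament, and Tnnt2 the cardiac troponin T that ties the calcium switch to the thin filament. Mybph encodes myosin binding protein H, a thick filament protein, and Igfn1 a Z-disc protein. The platform annotation named at least 1 probe set, the set of short probes that reads a transcript, for 6 of the 7. Igfn1 was named by 0 probe sets and was not analysed here. The 6 genes were among the 9697 genes tested in all, and each of the 6 passed the filter on dim probe sets.

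The values are from quadriceps femoris, a thigh muscle, of 9 female mice of the strain C57Bl/6 HT transgenic, in which removing the antibiotic doxycycline switches on a transgene that encodes a class I MHC protein of the mouse itself. Late mice (n = 3) had doxycycline stopped at 35 days of age and were killed at 50 days. Early mice (n = 3) had it stopped at 21 days and were killed at 35 days, after 2 weeks of expression. Control mice (n = 3) had doxycycline throughout and were killed at 35 days. The strain label is the same in all groups, whereas the treatment protocol describes the controls as littermates with a single transgene, so controls may differ in genotype too; the promoter that drives the transgene is not given in the sources used here. Late mice were older than early and control mice, so age and induction cannot be told apart in any comparison with them. Each array is 1 mouse sample of whole muscle, in which fewer cells of a type and less RNA per cell cannot be told apart. All levels below are deposited log2 values (GCRMA) and all differences are on the log2 scale, where 1 is a doubling; 9 arrays limit the precision.

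H2-K1, the class I gene taken here to read the transgene, was high in every induced array. It stood at 14.20, 13.11 and 14.31 in late replicates 1, 2 and 3 and at 14.67, 14.63 and 14.69 in early replicates 1, 2 and 3, against 10.88, 10.47 and 10.21 in controls. Its probe set is of a type that may share probes with other genes, so their signal may be part of these levels. The early arrays were nevertheless unlike each other over all genes: the root mean square difference from the 3 controls was 0.42 to 0.51 for early replicate 3, against 0.82 and 0.65 between that array and early replicates 1 and 2. Late replicate 1 lay 0.62 and 0.64 from the other late arrays, which lay 0.40 from each other. Early replicate 3 therefore stood apart from its group although its H2-K1 level did not, and results that rest on it are given with and without it. The array was singled out after the data were seen. For genes in which it lies apart from the other early arrays, leaving it out narrows the early spread. The p values without it are therefore no separate support.

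None of the 6 genes passed the test in any comparison, but 4 of them reached high levels in single induced animals. Myl4, Tnnt2, Myh3 and Myh8 stood above every control in early replicates 1 and 2, while Actc1 and Mybph stood below every control in the same arrays. In early replicate 3 all these differences were absent or turned round, except for Myh8, which lay 0.15 above the control mean. Adjusted p values of limma, a linear model fitted to all genes at once with Benjamini-Hochberg adjustment, ran from 0.136 to 0.937 over the 6 genes and 3 comparisons. The share of all tested genes called at an adjusted p under 0.05 was 0.206% in late against control, 1.19% in early against control and 11.5% in late against early, and 0 of 6 members were called in each. At an unadjusted limma p under 0.05 there were 0, 1 and 1 members in the same order, against 17.3%, 18.5% and 34.2% of all genes.

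**Figure D1:**
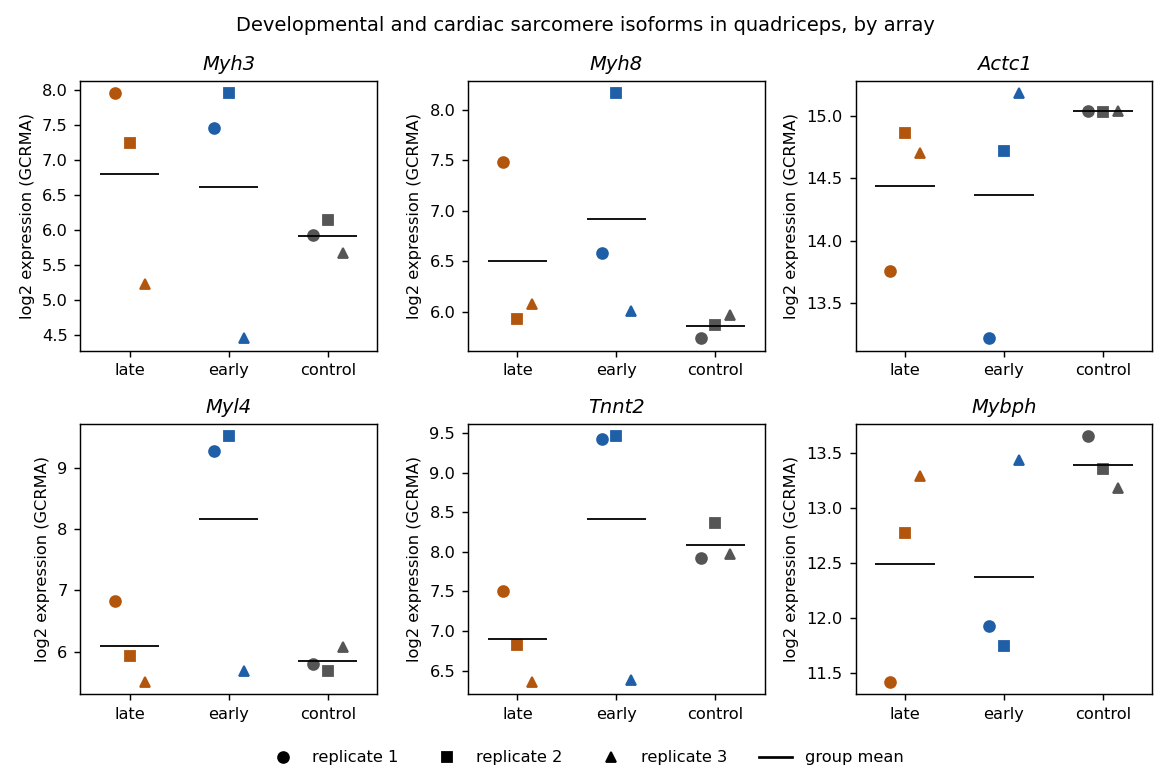
Level of each of the 6 genes in every array (vertical axis, log2 GCRMA value, with its own range in each panel), by group; symbols give the replicate and horizontal lines the group mean. Early replicates 1 and 2 lie above all controls for Myh3, Myh8, Myl4 and Tnnt2 and below them for Actc1 and Mybph, and early replicate 3 lies near or beyond the controls on the other side for all but Myh8.

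Among the 3 myosin genes of the 6, Myl4 had the largest difference in early against control and in late against early. Its level was 6.82, 5.93 and 5.51 in late mice and 9.28, 9.51 and 5.68 in early mice, against 5.80, 5.68 and 6.07 in control mice. Early replicates 1 and 2 stood well clear of all other arrays, early replicate 3 lay inside the control range, and the groups overlapped. The early difference was 2.31 ± 0.88 (SE), or 4.96-fold, with a 95% interval of 0.31 to 4.31 (unadjusted p = 0.0285), and it did not pass after adjustment over all genes (limma adjusted p = 0.224). Without early replicate 3, the early array in which Myl4 was not high, it was 3.55 ± 0.34 (limma adjusted p = 0.000819). In that fit 18.1% of all genes were called in early against control, against 1.19% with all arrays. Late mice differed from controls by 0.24 ± 0.88 (limma adjusted p = 0.92) and from early mice by -2.07 ± 0.88 (95% interval -4.08 to -0.07, limma adjusted p = 0.136). A further Myl4 probe set lay between 2.55 and 2.87 in all arrays, below the floor of 5 that the filter uses, and was not tested.

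Myh3, which encodes the embryonic heavy chain, had 7.96, 7.25 and 5.23 in late mice and 7.46, 7.96 and 4.45 in early mice, against 5.93, 6.15 and 5.68 in control mice. Replicates 1 and 2 of both induced groups exceeded every control, and replicate 3 of both lay below every control. Early replicate 3 lay under the floor of 5 and late replicate 3 just above it. The size of the step below the controls therefore rests on dim values. The group means were 6.81 ± 1.41 in late mice, 6.62 ± 1.90 in early mice and 5.92 ± 0.23 in control mice (SD, n = 3 each). The differences of 0.89 ± 0.93 in late mice (limma adjusted p = 0.657) and 0.70 ± 0.93 in early mice (limma adjusted p = 0.707) were smaller than their errors, and their 95% intervals reached from -1.22 to 3.00 and from -1.41 to 2.81. With replicate 3 of both induced groups left out, an alternative chosen after the data were seen, Myh3 differed by 1.68 in late mice (limma adjusted p = 0.0543) and by 1.79 in early mice (limma adjusted p = 0.00704). On leaving out 1 array its difference ran from 0.32, without late replicate 1, to 1.68, without late replicate 3, in late mice, and from 0.03, without early replicate 2, to 1.79, without early replicate 3, in early mice.

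Myh8, the perinatal heavy chain gene, had 7.48, 5.93 and 6.08 in late mice and 6.58, 8.16 and 6.01 in early mice, against 5.74, 5.87 and 5.97 in control mice. Each induced group held 1 array well above the rest, late replicate 1 and early replicate 2. Early replicate 2 also had the highest Myl4 level. Every early array lay above every control, the lowest of them by 0.04, which is a smaller step than the control SD of 0.12. The early difference was 1.06 ± 0.56 (limma adjusted p = 0.334) and the late difference 0.64 ± 0.56 (limma adjusted p = 0.59). Without early replicate 2 the early difference was 0.44, and on leaving out 1 array the late difference ran from 0.14, without late replicate 1, to 0.92.

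Tnnt2, cardiac troponin T, had 7.51, 6.82 and 6.36 in late mice and 9.43, 9.46 and 6.38 in early mice, against 7.92, 8.37 and 7.97 in control mice. All 3 late arrays and early replicate 3 lay below every control, and early replicates 1 and 2 lay above. The late difference was -1.19 ± 0.74 (limma adjusted p = 0.434), with an error that includes the spread of the early arrays. With only the late and control arrays fitted it was -1.19 ± 0.30 (limma adjusted p = 0.108, unadjusted p = 0.00608). The early difference was 0.34 ± 0.74 (limma adjusted p = 0.828), and it was 1.36 ± 0.31 without early replicate 3 (limma adjusted p = 0.0216) but -0.17 without early replicate 1 and -0.18 without early replicate 2. Late mice differed from early mice by -1.53 ± 0.74 (limma adjusted p = 0.177), and by -2.55 without early replicate 3 (limma adjusted p = 0.00146). Without that array 18.1% of all genes were called in early against control and 30.5% in late against early. A further probe set of Tnnt2 had 7.04, 6.02 and 5.42 in late mice and 8.62, 8.75 and 5.76 in early mice, against 7.25, 7.58 and 7.25 in control mice, the same order of arrays above and below the controls. Both of these probe sets are of types that may share probes with other transcripts or genes, so their likeness is no separate support. With such probe sets left out, 5 members were tested and Tnnt2 was not among them. Another Tnnt2 probe set lay between 1.95 and 2.05 in all arrays and was not tested.

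Actc1, the cardiac alpha actin gene, was bright in control quadriceps. It had 13.76, 14.86 and 14.70 in late mice and 13.22, 14.72 and 15.18 in early mice, against 15.04, 15.03 and 15.04 in control mice, where the highest value of the whole table was 16.1. All late arrays and early replicates 1 and 2 lay below the 3 controls, which agreed to within 0.01 (SD), a smaller SD than in all but 0.763% of genes. The differences were -0.60 ± 0.47 in late mice (limma adjusted p = 0.547) and -0.66 ± 0.47 in early mice (limma adjusted p = 0.467). On leaving out 1 array the early difference ran from -1.07, without early replicate 3, to -0.09, without early replicate 1, and was not called in any of these fits. Acta1, the skeletal alpha actin of adult fibres, lay between 15.81 and 16.10 in all 9 arrays.

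Mybph, which encodes myosin binding protein H, had 11.42, 12.77 and 13.29 in late mice and 11.93, 11.74 and 13.44 in early mice, against 13.65, 13.35 and 13.18 in control mice. Replicates 1 and 2 of both induced groups lay below every control and replicate 3 of both lay inside the control range. The late difference was -0.90 ± 0.54 (limma adjusted p = 0.416) and the early difference -1.02 ± 0.54 (limma adjusted p = 0.335, 95% interval -2.25 to 0.20). The early difference was -1.56 without early replicate 3 (limma adjusted p = 0.0569) and -1.56 with late replicate 3 left out as well (limma adjusted p = 0.0333).

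**Figure D2:**
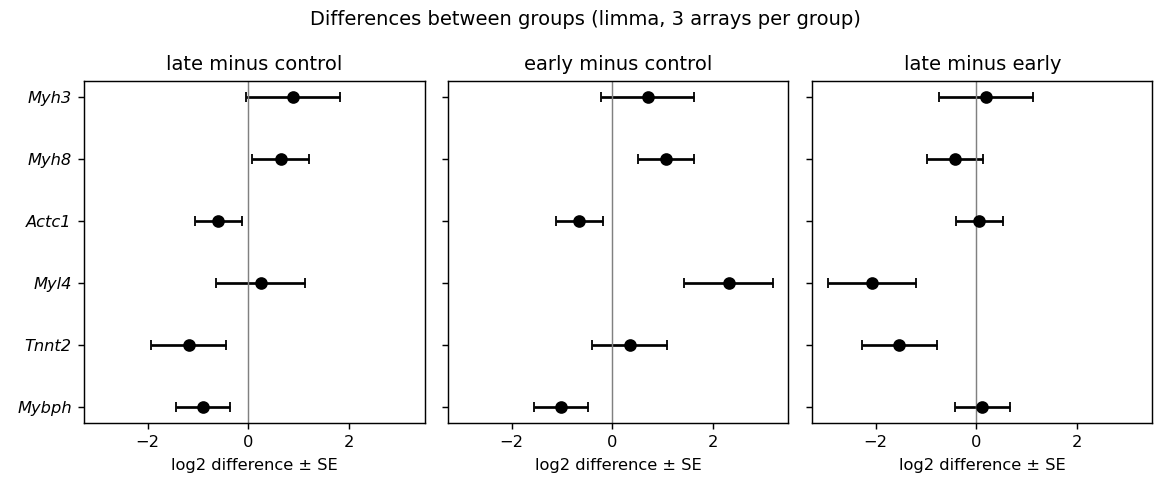
Difference between group means (points, log2) with its SE (bars) for each gene in late minus control, early minus control and late minus early, from the limma fit to all 9 arrays. Only Myl4 exceeds 2 in size, at 2.31 in early minus control and -2.07 in late minus early, and no gene passed an adjusted p of 0.05.

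Counted by array, all 6 genes left the control range in late replicate 1 and in early replicates 1 and 2. In late replicate 1 there were 3 above the highest control and 3 below the lowest, where 37.6% of all tested genes lay above and 36.8% below. Late replicate 2 had 1 above and 3 below (34.7% and 33.3% of all genes), and late replicate 3 had 1 above and 4 below (33.5% and 30.9%). Early replicate 1 had 4 above and 2 below (37.3% and 41.9%), early replicate 2 had 4 above and 2 below (34.3% and 36.3%), and early replicate 3 had 2 above and 2 below (20.9% and 34.8%). Leaving the range of 3 controls was thus common among all genes. Whole groups did not overlap for 2 of 6 members in late against control (Actc1 and Tnnt2, both lower, as were 14.9% of all genes), for 1 of 6 in early against control (Myh8, higher, as were 9.63% of all genes) and for 0 of 6 in late against early. In either direction it held for 31.0%, 23.6% and 32.1% of all genes in that order, so the members' counts lie near the background. The median difference of the 6 genes was -0.18 in late against control, 0.52 in early against control and -0.18 in late against early, beside 0.01, -0.03 and 0.03 for all genes.

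The 6 genes shared a wide spread within the induced groups. Within the early group their SD ran from 0.93 for Mybph to 2.15 for Myl4, and 95.8% to 99.7% of all genes had a smaller one. Within the late group it ran from 0.58 for Tnnt2 to 1.41 for Myh3, with 90.2% to 99.2% of genes below. Within the control group the SD was 0.24 or less for each, and 0.763% to 75.6% of genes had a smaller one. The median SD over all genes was 0.22 in late, 0.27 in early and 0.15 in control arrays, so in controls Myh3, Myl4, Tnnt2 and Mybph lay above the median and Myh8 and Actc1 below it.

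Leaving out 1 array at a time showed how far a single animal set each early difference. Without early replicate 3, 2 of 6 members rose, Myl4 and Tnnt2, where 18.1% of all genes were called. The same 2 were called, lower, in late against early there, where 30.5% of all genes were called, and 0 in late against control, where 0.608% were. Myh3 at 1.79 (limma adjusted p = 0.11) and Myh8 at 1.51 (limma adjusted p = 0.0977) did not pass there. No member was called on leaving out any other array, in any of the 3 comparisons. With replicate 3 of the early and late groups both left out, 4 of 6 were called in early against control, Myl4, Myh3 and Tnnt2 higher and Mybph lower, where 16.3% of all genes were called. In late against early 2 of 6 were called, where 27.2% of all genes were, and in late against control 0, where 0.505% were. With arrays weighted by how well they fit their group, members called numbered 1 (10.7% of all genes), 5 (34.4%) and 4 (36.4%) in late against control, early against control and late against early.

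**Figure D3:**
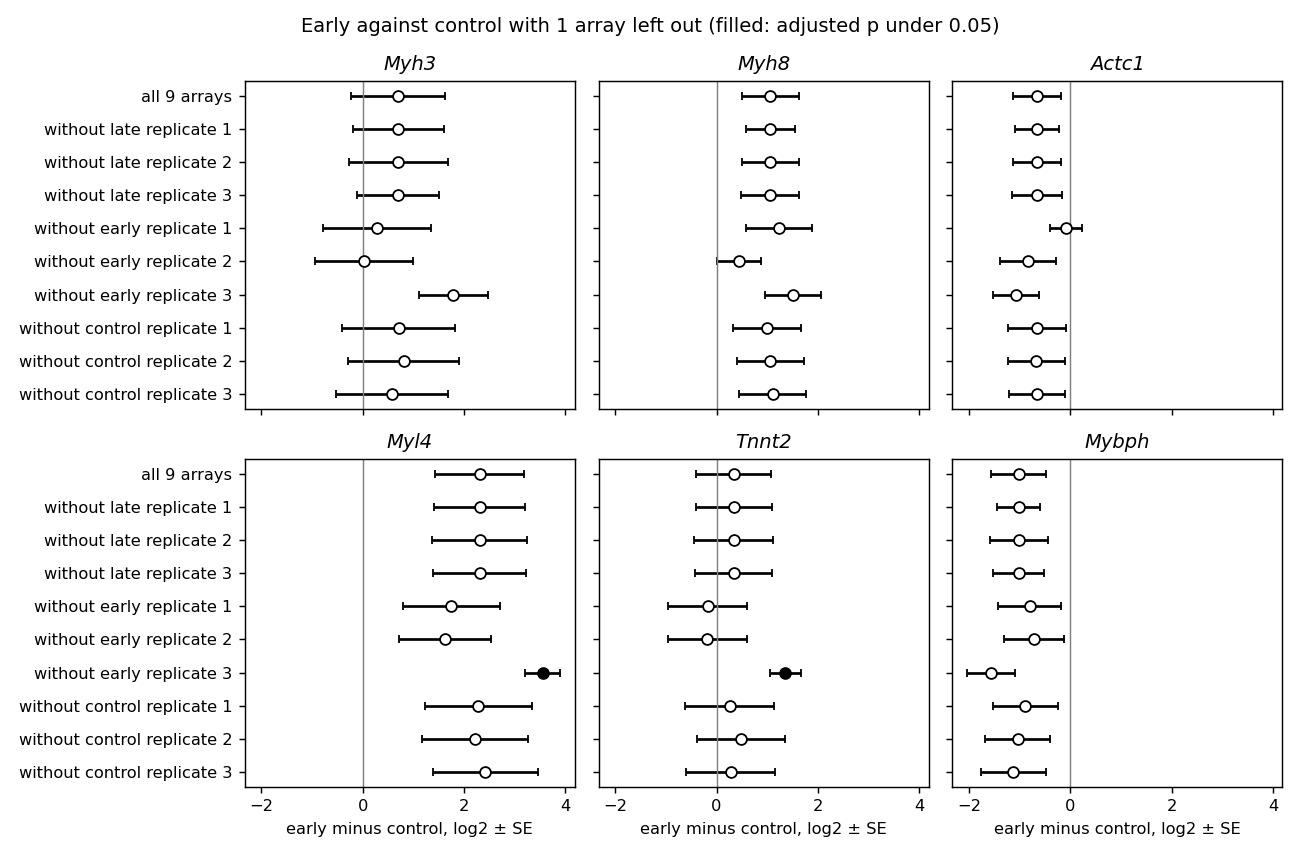
Early minus control difference (horizontal axis, log2, with SE bars) of each gene from all 9 arrays and with 1 array left out (rows); filled points passed an adjusted p of 0.05. Myl4 at 3.55 and Tnnt2 at 1.36 are filled, both in the row without early replicate 3, and all other points are open.

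The profiles of the members over the 9 arrays lay nearest one another in 3 pairs. As a measure of likeness, each profile was centred on its own mean and compared by the root mean square difference in log2 units. Actc1 and Mybph differed by 0.51, Myh3 and Myh8 by 0.82 and Myl4 and Tnnt2 by 0.87, whereas Myl4 and Mybph differed by 2.16. Among the other genes, the profile most like that of Myh3 was Myoz2, which encodes a Z-disc protein of slow fibres (0.46, where Myh3 itself varied by 1.18 about its mean). For Myl4 it was Camta1 (0.20 of 1.49), for Tnnt2 the immediate early gene Egr1 (0.41 of 1.10), for Myh8 Ccdc122 (0.38 of 0.79), for Actc1 Sypl2 (0.24 of 0.63) and for Mybph the phosphodiesterase gene Pde4a (0.18 of 0.79). All these profiles come from the same 9 arrays, so they share whatever sets those arrays apart.

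The upstream sequences of 4 members are shown because they stand for both directions: Myh3 and Tnnt2, high in early replicates 1 and 2, and Actc1 and Mybph, low there. Each is the 250 bases before the gene's start in RefSeq (build GRCm38.p6), 5′ to 3′ on the gene's strand, and capitals mark every match to 5 motifs on either strand: the E-box CANNTG bound by myogenic factors, the MCAT motif CATTCC, the TATA box TATAAA, the CArG box and the MEF2 site. Myh3 lies at chr11:67078050-67078299 (plus strand), Tnnt2 at chr1:135836084-135836333 (plus strand), Actc1 at chr2:114052876-114053125 (minus strand) and Mybph at chr1:134193198-134193447 (plus strand).
Myh3: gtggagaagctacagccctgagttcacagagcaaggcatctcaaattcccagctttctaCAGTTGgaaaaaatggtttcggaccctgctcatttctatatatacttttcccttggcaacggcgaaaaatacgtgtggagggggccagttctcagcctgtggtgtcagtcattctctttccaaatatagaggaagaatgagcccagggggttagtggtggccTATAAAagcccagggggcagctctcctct
Tnnt2: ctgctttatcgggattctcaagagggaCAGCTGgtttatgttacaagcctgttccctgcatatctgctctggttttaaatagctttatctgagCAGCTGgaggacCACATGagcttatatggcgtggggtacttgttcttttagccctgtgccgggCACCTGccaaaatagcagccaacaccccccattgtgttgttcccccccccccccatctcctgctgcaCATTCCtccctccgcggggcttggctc
Actc1: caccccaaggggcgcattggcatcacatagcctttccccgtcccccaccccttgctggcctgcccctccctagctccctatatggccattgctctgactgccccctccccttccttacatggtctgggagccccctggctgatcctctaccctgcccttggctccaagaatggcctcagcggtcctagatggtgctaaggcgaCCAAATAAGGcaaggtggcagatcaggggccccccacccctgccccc
Mybph: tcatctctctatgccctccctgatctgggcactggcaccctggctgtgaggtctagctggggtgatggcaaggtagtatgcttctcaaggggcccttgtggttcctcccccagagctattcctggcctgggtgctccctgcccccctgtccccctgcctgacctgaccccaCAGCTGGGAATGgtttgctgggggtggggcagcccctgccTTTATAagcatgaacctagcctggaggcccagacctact

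An E-box was found before 5 of the 7 listed genes, Igfn1 included, and in 66.2% of 32851 windows of the same length before mouse genes. Tnnt2 held 4 E-boxes and an MCAT motif that begins 27 bases before the start, and in Mybph an E-box directly adjoined an MCAT match; 12.6% of windows hold MCAT. Only the Actc1 window held a CArG box, 47 bases before the start, against 1.47% of windows, and only that of Myh8, not printed, held a MEF2 site, against 2.92%. The TATA box was matched in Myh3, Mybph and Myh8, in the last within its MEF2 site, and in 12.4% of windows. The Myl4 window held none of the 5 motifs. For Tnnt2 the first of 2 listed starts was used.

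Some members are neighbours in the genome. Myh3 and Myh8 bracket a run of myosin heavy chain genes on chromosome 11, with Myh2, Myh1 and Myh4, the adult fast heavy chains, between them and no other protein-coding gene in that order. Myh1 lay between 14.91 and 15.20 and Myh4 between 15.43 and 15.88 in all 9 arrays, while their neighbours Myh3 and Myh8 spanned 4.45 to 7.96 and 5.74 to 8.16. On chromosome 1 Tnnt2 has 1 protein-coding gene between it and Tnni1, the slow troponin I gene. Tnni1 had 11.33, 11.03 and 5.83 in late mice and 11.05, 9.56 and 5.18 in early mice, against 7.41, 6.27 and 8.72 in control mice, with replicate 3 of both induced groups below all controls and replicates 1 and 2 above.

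Slow fibre sarcomere isoforms moved widely between arrays of all groups, including the controls. Of 11 such genes tested, 0 passed in any comparison, with medians of 1.89 in late against control, -0.09 in early against control and 0.87 in late against early, beside 0.01, -0.03 and 0.03 for all genes. Over the control mean the list's median was 3.73, 3.09 and -0.69 in late replicates 1, 2 and 3 and 2.36, -0.08 and -2.29 in early replicates 1, 2 and 3, against -0.10, -0.97 and 1.17 in the controls. Early replicate 3 lay below every control for all 11. Myh7, the slow and cardiac ventricular heavy chain gene, had 13.37, 12.28 and 5.63 in late mice and 10.96, 2.78 and 2.79 in early mice, against 7.10, 2.81 and 9.55 in control mice. Early replicate 2 had high Myl4, Tnnt2 and Myh3 beside a Myh7 level as low as in early replicate 3. Over the 11 slow genes these 2 arrays differed, with 5 above every control and 3 below in early replicate 2, against 0 and 11 in early replicate 3. The part of slow fibre content in the members' values was not tested.

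Of the named slow genes, Myom3, an M-band protein gene, differed by 1.60 ± 0.93 in late mice against controls (limma adjusted p = 0.404), and Myl3, the slow and ventricular essential light chain gene, by 4.66 ± 2.11 in late against early (limma adjusted p = 0.156). Tpm3, slow tropomyosin, differed by -0.63 ± 0.19 in late against control (limma adjusted p = 0.171) on its brightest probe set, and by 1.99 on another. Of 15 adult fast isoforms, 0 passed in any comparison, and the medians were -0.05, -0.12 and 0.08 for late against control, early against control and late against early. Their brightest probe sets, such as those of Myh1 and Myh4, lie near the highest value of the table, 16.1. Myh2, the heavy chain of oxidative fast fibres, had values of 0.68 ± 0.37 in late against control (limma adjusted p = 0.384) and 0.80 ± 0.37 in late against early (limma adjusted p = 0.164).

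**Figure D4:**
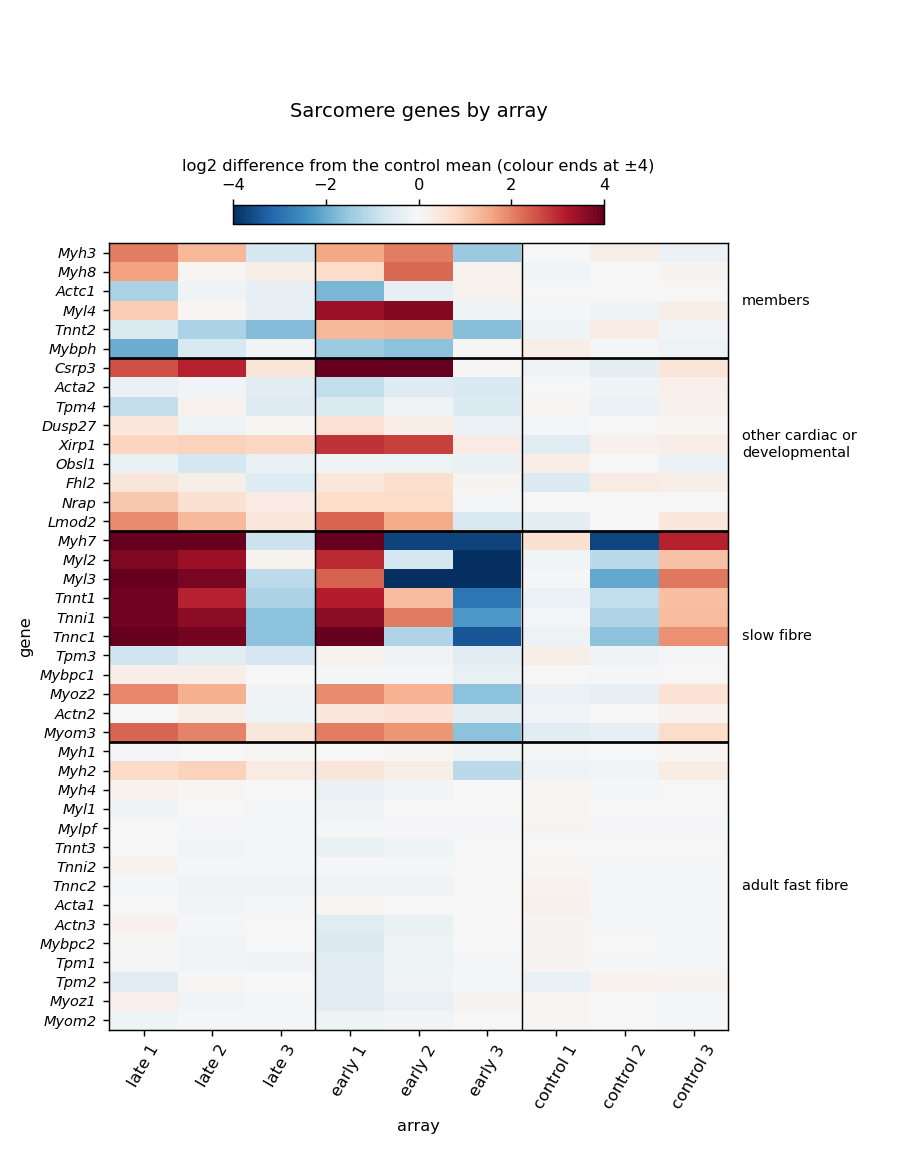
Difference of each array (columns) from the mean of the 3 controls for the members, other cardiac or developmental muscle genes, slow isoforms and adult fast isoforms (rows), in log2 units with the colour ending at ±4. Myl4 reaches 3.43 and 3.66 in early replicates 1 and 2, slow isoforms are high in late replicates 1 and 2 and in early replicate 1, and adult fast isoforms stay pale apart from Myh2.

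Other cardiac or developmental muscle genes gave the same count of calls as the members. Of 24 listed, 9 passed the filter and 0 of these were called in any comparison, with medians of 0.11 in late against control, 0.41 in early against control and -0.10 in late against early. Csrp3, a LIM protein of striated muscle, had 11.11, 11.61 and 9.02 in late mice and 14.02, 12.90 and 8.58 in early mice, against 8.39, 8.17 and 9.03 in control mice. Early replicates 1 and 2 were again the highest arrays and early replicate 3 lay inside the control range. Its early difference was 3.30 ± 1.25 (limma adjusted p = 0.224), and 4.93 without early replicate 3 (limma adjusted p = 0.00379). Xirp1, an actin-binding protein of injured and remodelling muscle, differed by 1.98 ± 0.59 in early mice (limma adjusted p = 0.157), and by 2.81 without early replicate 3 (limma adjusted p = 0.00035). Without that array 18.1% of all genes were called in early against control. Acta2, an actin of smooth muscle that is also made in early muscle development, differed by -0.72 ± 0.17 in early against control (limma adjusted p = 0.10), by -0.76 without early replicate 3 (limma adjusted p = 0.029) and by 0.44 ± 0.17 in late against early (limma adjusted p = 0.107). Nrap, a protein of sarcomere assembly, and Obsl1, a cytoskeletal linker, had late differences of 0.67 ± 0.25 and -0.42 ± 0.17 (limma adjusted p = 0.242 and 0.266).

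Of 19 myogenic and regeneration genes tested, 2 fell in late against control, 1 fell in early against control and 2 fell in late against early, and 0 rose. Of all genes 0.206%, 1.19% and 11.5% were called in these comparisons, in the same order. Mymk, the fusion protein of myoblasts, fell in both induced groups, with differences of -2.60 ± 0.19 in late mice (limma adjusted p = 0.0016) and -1.42 ± 0.19 in early mice (limma adjusted p = 0.0139), where its level was 3.90, 3.92 and 4.04 in late mice and 4.96, 5.45 and 4.98 in early mice, against 6.83, 6.26 and 6.56 in control mice. All late values and those of early replicates 1 and 3 lay under the floor of 5, so the gene passed the filter through the controls and early replicate 2, and the sizes of its differences rest on dim values. The early call was lost without control replicate 1, 2 or 3 (limma adjusted p = 0.0564, 0.051 and 0.0892) and with only the early and control arrays fitted (0.053). Myog, the transcription factor of myoblast differentiation, had 5.55, 6.78 and 5.80 in late mice, against 8.84, 8.94 and 8.94 in control mice, with no overlap (-2.86 ± 0.39, limma adjusted p = 0.0359). Its late call was lost on leaving out control replicate 1, 2 or 3, early replicate 2, or late replicate 1 or 3 (limma adjusted p = 0.195, 0.238, 0.122, 0.0852, 0.0895 and 0.0705), and with no filter on dim probe sets (0.0669). In late against early Myog and Mymk fell too, with differences of -2.41 ± 0.39 (limma adjusted p = 0.0131) and -1.18 ± 0.19 (limma adjusted p = 0.0137), and the call of Mymk was lost without late replicate 2 (limma adjusted p = 0.0569). With only the late and early arrays fitted neither call held (limma adjusted p = 0.0697 for Myog and 0.0661 for Mymk). Late replicate 1, which had the highest late values of Myl4, Myh3, Myh8 and Tnnt2, had the lowest of Myog.

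In early replicates 1 and 2 other genes of the myogenic list stood out without passing. Ankrd1, a stress-responsive titin-binding protein, had 11.99, 12.40 and 7.95 in early mice, against 7.10, 7.30 and 7.32 in control mice (3.54 ± 0.97, limma adjusted p = 0.137). Ncam1, an adhesion molecule of regenerating and denervated fibres, had 9.62, 9.0 and 6.30 in early mice, against 6.12, 6.17 and 6.12 in control mice (2.17 ± 0.70, limma adjusted p = 0.174), and its difference was 0.77 as the mean of its passing probe sets. Pax7, the satellite cell factor, had 3.99, 4.51 and 6.03 in early mice, against 6.03, 6.64 and 6.42 in control mice (-1.52 ± 0.45, limma adjusted p = 0.158). Its values in early replicates 1 and 2 lay under the floor of 5, so the size of its difference, with or without early replicate 3, rests on dim values. Early replicate 3 was again the array nearest the controls in all 3 of these genes. Without it the differences were 4.96, 3.18 and -2.11 (limma adjusted p = 2.46e-05, 0.000164 and 0.00169). In that fit 18.1% of all genes were called in early against control.

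Of 17 scaffold genes of the sarcomere, 0 passed in late against control or early against control, and in late against early, where 11.5% of all genes were called, 2 passed. These were Flnc, an actin crosslinker of the Z-disc (fell by 1.16 ± 0.26, limma adjusted p = 0.0313), and Myom1, an M-band protein (rose by 0.90 ± 0.24, limma adjusted p = 0.049, and 0.0698 with the replicate number as a block). Neither call held with only the late and early arrays fitted (limma adjusted p = 0.108 and 0.137) or with no filter on dim probe sets (0.0619 and 0.0948). With 1 array left out each stayed past the threshold only without early replicate 3, and the limma adjusted p ran to 0.0908 for Flnc and 0.145 for Myom1. In early against control Flnc differed by 1.20 ± 0.26 (limma adjusted p = 0.0759) and Tcap, the titin cap, by -0.78 ± 0.21 (limma adjusted p = 0.137), and both passed without early replicate 3 (limma adjusted p = 0.000625 and 0.00751). Without that array 18.1% of all genes were called in early against control.

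Markers of other cells were read beside these results. Of 12 heart muscle markers 11 had a probe set and 0 passed the filter; 10, among them Myl7, Tnni3, Nppa and Mybpc3, stayed at or below 3.50 in all 9 arrays, and Myh6 exceeded the floor in 1 array. Myh6 ran from 3.14 to 6.24, and whether these markers bear on the members named for the heart was not tested. Of 6 muscle spindle markers with a probe set, 1 was tested, Egr3, with an early difference of 0.44 ± 0.91 (limma adjusted p = 0.818). The 7 skeletal muscle markers all passed the filter, with a summed level of 18.20 to 18.31 in late, 18.06 to 18.22 in early and 18.16 to 18.32 in control arrays (log2 of the sum). Of 15 macrophage markers 13 were tested; 0 passed in early against control, and the summed level was 12.64 to 13.00 in late, 12.66 to 14.49 in early and 12.80 to 13.22 in control arrays. Lgals3, a lectin of activated macrophages, had 12.81, 11.69 and 7.45 in early mice, against 8.22, 7.52 and 7.27 in control mice (2.98 ± 1.19, limma adjusted p = 0.236), and differed by 4.58 without early replicate 3 (limma adjusted p = 0.00233). Cd68, a lysosomal protein of macrophages, differed by 2.55 ± 1.25 (limma adjusted p = 0.305), and by 4.35 without that array (limma adjusted p = 0.000494). In the fit without early replicate 3, 18.1% of all genes were called in early against control. In late against early, where 11.5% of all genes were called, 1 macrophage marker fell, C1qa, a complement subunit (-1.70 ± 0.46, limma adjusted p = 0.0468). Its adjusted p was 0.0574 with the replicate number as a block, 0.113 with only the late and early arrays fitted and 0.109 with no filter, and with 1 array left out the call held only without early replicate 3, with adjusted p up to 0.125. The summed level of fibroblast markers was 15.75 to 16.12 in late, 16.14 to 16.51 in early and 16.31 to 16.62 in control arrays, and that of adipocyte markers 14.01 to 15.01, 14.14 to 14.38 and 14.55 to 15.15 in the same order, with 0 genes called in any comparison. That of Schwann cell markers was 11.88 to 12.44, 11.35 to 11.69 and 12.15 to 12.54. Of these Mbp, a myelin protein, was higher in late than in early mice (0.80 ± 0.22, limma adjusted p = 0.0498), a call lost with the block (0.0731) and on leaving out any 1 array (limma adjusted p = 0.0536 to 0.142), and the difference was 0.40 as the mean of its passing probe sets (limma adjusted p = 0.123). Against controls Mbp differed by -0.17 ± 0.22 in late mice (limma adjusted p = 0.729) and by -0.96 ± 0.22 in early mice (limma adjusted p = 0.0896). The part of these cells in the members' values was not tested. Of 6 smooth muscle markers tested, Myh11, the smooth muscle heavy chain gene, rose in late against early (1.28 ± 0.15, limma adjusted p = 0.00578); its family member Myh3 had 0.19 ± 0.93 there (limma adjusted p = 0.905), and the 2 were not tested against each other.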

How the data were processed

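Per the labels' protocols, biotin-labelled RNA, primed from the poly(A) tail, was read on 9 Affymetrix arrays. The authors deposited log2 values made with GCRMA, per the submitters' processing notes; no version or settings are stated there. GCRMA narrows the spread of dim probe sets and makes array distributions alike; array medians were 3.41 to 3.45.

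Of 45101 probe sets, 34945 named 1 gene, 932 several and 9160 none in the platform annotation, beside 64 control probe sets. Probe sets above a log2 value of 5 in at least 3 arrays were kept, and the brightest per gene was taken, giving 9697 genes. A model of 3 group means was fitted to all arrays with limma 3.58.1 in R 4.3.3 (6 residual and 2.84 prior degrees of freedom), with Benjamini-Hochberg adjustment over all genes. It was also run on simulated data with the same spread in every group, which does not cover unequal spreads or an array that stands apart. An exact test of 3 against 3 cannot go below p = 0.1. The protocol calls the controls littermates, but no label gives a litter to a sample. The p values cover only the spread among the arrays of a group, and whether litter and group coincide is not known.

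The deviations of same-numbered late and early arrays from their group means had correlations across genes of 0.168, 0.201 and 0.16. Those of late and control had 0.0847, -0.165 and -0.11, and those of early and control 0.35, 0.11 and -0.0391. Differently numbered arrays were not compared, so these values cannot show whether the numbers pair any arrays. The replicate number was used as a block only in an alternative setting. Members and lists were chosen with earlier results of these data known. Genes outside the 6 were named by rule: up to 4 per list with the smallest p in a comparison, the profiles most like each member, adult counterparts or neighbours, and H2-K1.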

Additional observations from a re-analysis of the deposited data

How the results depend on the processing

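The number of members called was 0 in all 3 comparisons in every setting but the following. With array weights 1, 5 and 4 members were called in late against control, early against control and late against early, where 10.7%, 34.4% and 36.4% of all genes were called, and Myh3 in late against early turned to -1.16. With early and late replicate 3 both left out, an alternative chosen after seeing the data, 4 and 2 members were called in early against control and late against early, and Myh3 in late against early was -0.10. With 1 array left out the number ran from 0 to 2 in early against control and in late against early, the 2 being without early replicate 3, and was 0 throughout in late against control.

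On leaving out 1 array some uncalled differences changed sign. Ranges were -0.18 to 1.36 for Tnnt2 in early against control and -0.13 to 0.53 for Myl4 in late against control. In late against early they were -0.90 to 0.98 for Myh3, -0.91 to 0.20 for Myh8, -0.51 to 0.47 for Actc1 and -0.27 to 0.66 for Mybph. Tpm3 in late against control was 0.64 as the mean of its probe sets and 1.99 without probe sets that may share probes. The cause of these changes was not tested.

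With the replicate block 0 members were called in each comparison (Myl4 in early against control adjusted p = 0.181, in late against early 0.11). The block ended the calls of Myog in late against control (0.0935) and Mymk in early against control (0.0508), and whether the numbers pair the arrays is not known. The count over all genes, 20 in late against control, 115 in early against control and 1119 in late against early, was 5, 62 and 1114 with the block, 20, 56 and 584 with no filter, 12, 61 and 38 with only the arrays compared, and 1037, 3335 and 3534 with array weights. With all 16048 passing probe sets tested it was 26, 163 and 1803. Leaving out 1 array gave 5 to 59, 6 to 1756 and 143 to 2959.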

Other observations

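Sln, which encodes sarcolipin, a regulator of the calcium pump, was picked out after its values were seen. It had 9.65, 8.30 and 6.13 in late mice and 10.67, 10.98 and 5.10 in early mice, against 6.43, 6.24 and 6.74 in control mice, so that replicates 1 and 2 of both induced groups lay above every control and replicate 3 of both below, as for Myh3. Chrna1, an acetylcholine receptor subunit, was also picked out in this way. It had 10.32, 9.45 and 9.49 in late mice and 12.40, 12.05 and 9.58 in early mice, against 10.14, 10.13 and 9.97 in control mice. The sample titles hold a longer number whose meaning is not given. It is consecutive for early replicate 3 and late replicate 3, for late replicates 1 and 2, and over the 3 controls, and that of late replicate 3 falls among the numbers of the early and control mice, not beside those of the other late mice.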
